A study of Homo sapiens with 2 samples.

Results

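The genes described here are the NOTCH receptors NOTCH1, NOTCH2 and NOTCH3, the ligands JAG1, JAG2, DLL1, DLL3 and DLL4, and the fringe enzymes LFNG and MFNG. Their symbols were listed as the receptors, ligands and fringes of the pathway, with no threshold on their values, and they are 10 of the 36601 genes listed in the files. All 10 had UMIs (unique molecular identifiers, each standing for 1 captured RNA molecule) in both libraries. The cells came from human inner ear organoids, aggregates grown from the WA25 embryonic stem cell line in its SOX2nT derivative, whose nuclear tdTomato reporter marks SOX2, a transcription factor of otic and neural progenitors. Organoids were taken on day 40, and reporter-positive cells were sorted before 10x Genomics 3′ sequencing, so every level refers to the sorted population. Both groups share the line, the reporter, the sort and the day. They differ in the matrix named in the labels: GelNB-CH, a hydrogel set under UV light, or Matrigel, a basement membrane extract. The culture text is the same for both, with GelNB-CH embedding on day 11 and oDex at 0.02% on day 15, and the sources used here describe none for the Matrigel organoids. Whether the line is a single clone, and how many organoids were pooled, is not given there either. Each group is 1 library, so no difference below has a replicate check, and the intervals (95%) cover counting error only.

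NOTCH receptors are cleaved when a ligand on a neighbouring cell binds them, and the freed intracellular domain acts with RBPJ to switch on targets such as HES and HEY genes. In the inner ear, JAG1 is known for marking the prosensory epithelium, while DLL1 and JAG2 made by nascent hair cells act on their neighbours, and DLL1 also acts while neuroblasts leave the otic epithelium. Fringe enzymes add a sugar to the receptors that alters how they respond to Delta and Jagged ligands.

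The promoter windows of JAG1 and LFNG are printed because JAG1 gave most ligand UMIs of the otic cells, and because LFNG was high in neural cells and has a start with both motifs. They are the 250 bases before the RefSeq start, on GRCh38.p14, written 5′ to 3′ on the gene's strand. Capitals mark matches on either strand to CANNTG, the letters of the E-box bound by proneural factors, and to TGGGAA, the core read by RBPJ. No match shared bases with another in these windows. JAG1 lies at chr20:10674000-10674249 on the minus strand. The first LFNG window lies at chr7:2512279-2512528 and the second at chr7:2517613-2517862, both on the plus strand, and the second falls in an intron of an LFNG transcript of GENCODE v29 that starts upstream.
JAG1: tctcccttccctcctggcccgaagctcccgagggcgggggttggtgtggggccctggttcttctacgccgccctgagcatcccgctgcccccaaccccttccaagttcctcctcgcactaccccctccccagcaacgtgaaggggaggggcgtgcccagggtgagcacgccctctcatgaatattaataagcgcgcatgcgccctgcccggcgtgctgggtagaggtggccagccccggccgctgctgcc
LFNG start 1: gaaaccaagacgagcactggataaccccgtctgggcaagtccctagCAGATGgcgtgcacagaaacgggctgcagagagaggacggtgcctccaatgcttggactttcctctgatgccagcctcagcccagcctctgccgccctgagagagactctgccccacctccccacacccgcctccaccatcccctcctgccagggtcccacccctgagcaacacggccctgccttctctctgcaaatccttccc
LFNG start 2: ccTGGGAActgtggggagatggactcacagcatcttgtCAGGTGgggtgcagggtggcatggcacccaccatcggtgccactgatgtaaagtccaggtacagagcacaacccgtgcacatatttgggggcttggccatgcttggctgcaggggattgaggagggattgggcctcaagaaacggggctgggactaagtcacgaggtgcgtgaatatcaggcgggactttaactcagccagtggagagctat
The JAG1 window held neither motif, the first LFNG window held 1 CANNTG, and the second held 1 CANNTG and 1 TGGGAA. Of 35116 promoter windows of this length, 61.8% held CANNTG and 20.8% held TGGGAA. For 7 of the 10 genes RefSeq gave a window, 8 windows in all. Of these, 3 held CANNTG, 1 held TGGGAA and 5 held neither. Their GC content ran from 57.2% to 81.6%, against a median of 58% over all windows. DLL1, DLL3 and MFNG had no entry. A match describes letters only.

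The libraries held 21743 (GelNB-CH) and 10912 (Matrigel) cell barcodes, 78 of which occur in both, with 247006223 and 178672097 UMIs. After filtering, 18253 and 9800 cells remained, with median depths of 8558 and 14001.5 UMIs per cell. Levels are given as CPM, the UMIs of a gene per 1000000 UMIs summed over the named cells. Cells were grouped into 25 clusters with the NOTCH genes left out of the clustering genes, and a cluster was named only from marker genes. Otic epithelium-like cells (6 clusters) numbered 6441 and 2575, and the 14 markers of the otic epithelium list summed to 5941 and 4671 CPM, against 249 and 264 in neuron-like cells. These markers also set the name, so their sum is no check of it. Hair cell-like cells were 16 and 12, a very small sample. The other classes were neuron-like (828 and 123 cells), mesenchyme-like (3657 and 1993), cartilage-like (2577 and 756), Schwann or satellite glia-like (1273 and 2494), central nervous system progenitor-like (808 and 205) and melanocyte-like (79 and 4). Clusters with no name are called by leading genes: the CITED1 and CA2 cluster (number 3), the KRT5 and KRT15 cluster (17), the NEUROD1 and PPP1R17 cluster (4), the PAX3 cluster (13) and a cluster of 22 and 2 cells led by the muscle genes MYLPF and MYL1 (24). Orders of levels below cover 10 lineages, which leave out the small hair cell-like and melanocyte-like classes and cluster 24. In such an order, neighbours are called apart where both library values of the higher lie above both of the lower. Endothelial markers, 7 genes of a cell type where DLL4 is well known, summed to 5.0 and 6.2 CPM over all cells. As defining genes also set these classes, orders of levels across them are descriptions. 3′ UMI counts capture genes unequally, so levels are compared across cells within a gene.

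**Figure D1:**
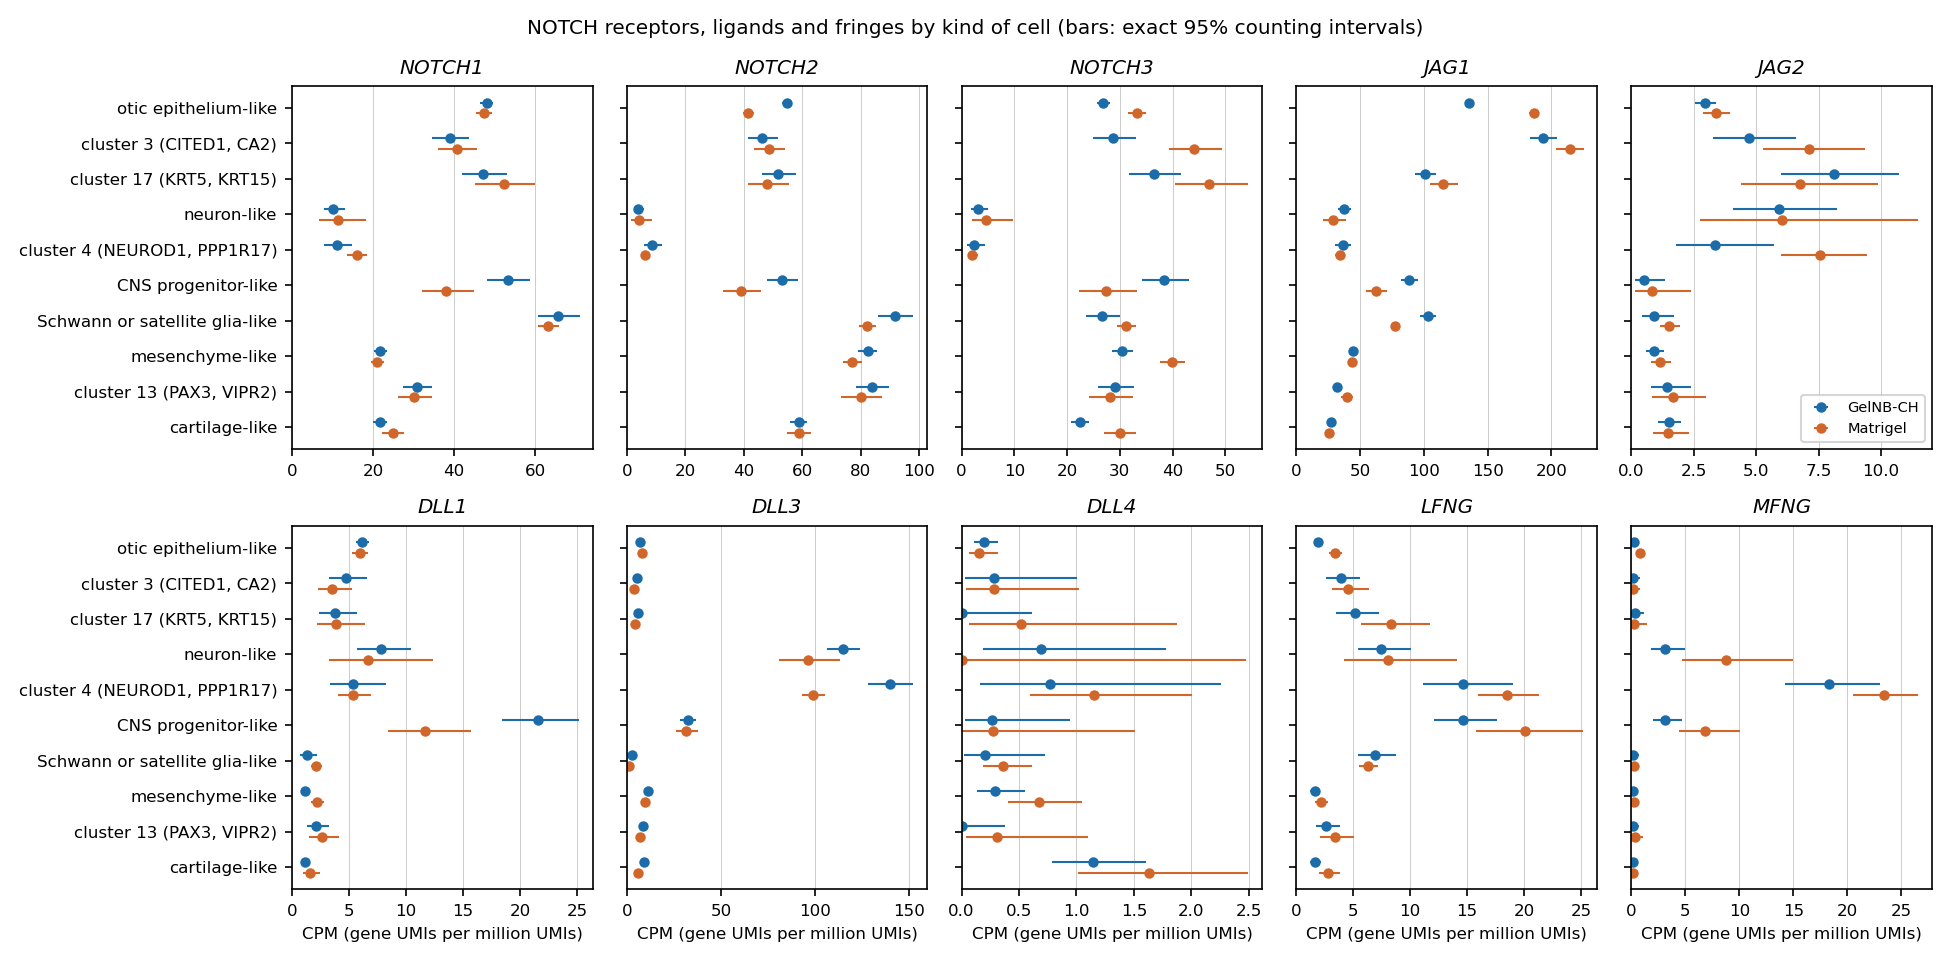
CPM of each of the 10 genes (horizontal axis, linear, a panel per gene with its own range) by lineage, with a point per library and an exact Poisson interval as the bar. NOTCH2 falls to 3.82 and 4.03 CPM in neuron-like cells, where DLL3 stands at 114.9 and 96.0.

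All 3 receptors were low in neuron-like cells and in the NEUROD1 and PPP1R17 cluster, and of the 10 lineages the glia-like cells had the highest mean of both libraries for NOTCH1 and NOTCH2. NOTCH1 (chr9:136494433-136545786), a receptor broadly used in epithelial and neural progenitors, stood at 65.7 CPM in GelNB-CH and 63.2 in Matrigel glia-like cells, 48.0 and 47.3 in otic cells, and 10.2 and 11.4 in neuron-like cells. Its glia-like level was apart from the next lineage, whereas the KRT5 and KRT15 cluster, the otic cells, the central nervous system progenitors and the CITED1 and CA2 cluster followed with no neighbours apart. Otic over neuron-like NOTCH1 was 4.69-fold in GelNB-CH and 4.14-fold in Matrigel. NOTCH2 (chr1:119911553-120069626), a second broadly expressed receptor, was 91.8 and 82.3 CPM in glia-like cells, 83.9 and 80.1 in the PAX3 cluster and 82.3 and 77.0 in mesenchyme-like cells, with no neighbours apart among these 3. In the 79 melanocyte-like cells of GelNB-CH it was 96.0 CPM, from 86 UMIs. Cartilage-like cells followed at 58.7 and 58.8, and otic cells at 54.8 and 41.5. Within the cartilage-like cells, the small cluster 21 (101 and 48 cells) had 191.0 and 158.6 CPM, from 106 and 65 UMIs. That is above the glia-like level in both libraries. Otic NOTCH2 was 14.4-fold (9.47 to 22.9) above neuron-like cells in GelNB-CH and 10.3-fold (4.73 to 28.1) in Matrigel. NOTCH2 spanned 22.2-fold across 10 lineages and NOTCH1 5.95-fold. Near-identical NOTCH2NLA (645 and 527 UMIs) and NOTCH2NLC (610 and 474) share sequence with NOTCH2, and the sources used here do not say how the counting split their reads.

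NOTCH3 (chr19:15159038-15200981), a receptor best known from vascular smooth muscle, was spread over 8 of the 10 lineages at 22.4 to 47.0 CPM. The KRT5 and KRT15 cluster had 36.4 and 47.0 CPM, mesenchyme-like cells 30.4 and 39.9, and otic cells 26.9 and 33.2. No neighbouring pair among these 8 lineages was apart until the step down to neuron-like cells, at 3.12 and 4.70. NOTCH3 in otic cells was 8.60-fold and 7.06-fold above neuron-like cells.

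JAG1 (chr20:10637684-10673999), the Jagged ligand of prosensory epithelium, was highest among the 10 lineages in the CITED1 and CA2 cluster and then in the otic cells. It was 193.6 and 214.5 CPM in the CITED1 and CA2 cluster and 135.0 and 186.4 in otic cells. That cluster met 10 of 14 otic markers, its best match among the lists, although the naming rule left it unnamed. Otic cluster 16 alone, at 258.8 and 283.6 CPM, was above it. The KRT5 and KRT15 cluster, glia-like cells and central nervous system progenitors came next, at 101 and 115, 103 and 77.6, and 88.3 and 62.4. The library values of neighbours among these 3 overlapped in range, although within each library the glia-like level was above that of the progenitors. Cartilage-like cells were lowest at 27.4 and 25.5, and otic JAG1 exceeded neuron-like JAG1 3.58-fold in GelNB-CH and 6.46-fold in Matrigel. The opposite-strand gene AL050403.2 overlaps JAG1 and had 786 and 717 UMIs, and the sources used here do not say whether counting used strand.

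Among the 6 otic clusters JAG1 had a wide range, while NOTCH1 and NOTCH3 had narrow ones. The GPC5 and IRX3 cluster (16) held 258.8 CPM of JAG1 in GelNB-CH and 283.6 in Matrigel. The NPY and SPX cluster (7) followed at 166 and 192, and the OTX2 and CYP26A1 cluster (6) had 65.1 and 80.0. Cluster 16 was thus 3.97-fold (3.69 to 4.28) and 3.55-fold (3.16 to 3.99) above cluster 6. NOTCH2 ran differently: it was 32.7 and 27.2 CPM in cluster 16, 47.9 and 36.3 in cluster 6, and 73.2 and 50.0 in the CALB1 and WIF1 cluster (2). Cluster 6 had 1.46-fold and 1.34-fold the NOTCH2 of cluster 16. NOTCH1 varied 1.21-fold over the otic clusters and NOTCH3 1.54-fold, with no neighbours apart. Cluster 8, led by the stress genes GDF15, TRIB3 and CDKN1A, had the lowest NOTCH2, 22.8 and 23.2 CPM.

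Among the Delta ligands, DLL3 was highest in neural cells, DLL1 in central nervous system progenitors among the 10 lineages, and DLL4 was too sparse for most comparisons. DLL3 (chr19:39498895-39508481), a divergent Delta known to act inside the cell that makes it, was 139.9 and 99.1 CPM in the NEUROD1 and PPP1R17 cluster, 114.9 and 96.0 in neuron-like cells, 32.4 and 31.5 in central nervous system progenitors and 7.07 and 7.96 in otic cells. Glia-like cells were lowest, at 2.82 and 1.29, 58.2-fold below the highest lineage. Neuron-like over otic DLL3 was 16.2-fold (14.5 to 18.3) in GelNB-CH and 12.1-fold (9.87 to 14.7) in Matrigel. DLL1 (chr6:170282206-170306565), the Delta ligand of newborn neurons and hair cells, had 21.6 and 11.7 CPM in central nervous system progenitors, 3.52-fold (2.93 to 4.22) and 1.96-fold (1.39 to 2.72) above the otic level of 6.13 and 5.95. Neuron-like cells had 7.81 and 6.71 CPM, and otic cluster 16 had 8.67 and 9.48. The hair cell-like cells, given further on, were higher than any of the 10 lineages in DLL1, JAG2 and MFNG. DLL1 overlaps FAM120B on the opposite strand, with 10081 and 9339 UMIs of its own.

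JAG2 and DLL4 were low in most lineages. JAG2 (chr14:105140981-105168824), a Jagged ligand of hair cells and stratified epithelia, was, among the 10 lineages, highest in the KRT5 and KRT15 cluster by the mean of both libraries, at 8.12 and 6.75 CPM, 2.75-fold and 1.99-fold over otic cells (2.95 and 3.39), and lowest in central nervous system progenitors (0.523 and 0.815). DLL4 (chr15:40929333-40939073), the Delta ligand best known from endothelium, had 71 UMIs in GelNB-CH and 83 in Matrigel over all kept cells. Its otic level rested on 14 and 7 UMIs, so that a pattern among otic clusters was not detectable at this depth.

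LFNG (chr7:2512529-2529177), the fringe linked to sensory patches and to segmentation, was 14.7 and 20.1 CPM in central nervous system progenitors and 14.7 and 18.5 in the NEUROD1 and PPP1R17 cluster. Otic cells had 1.86 and 3.39, and the progenitors were 7.89-fold and 5.93-fold above them. MFNG (chr22:37469063-37486401), the Manic fringe, was highest among the 10 lineages in the NEUROD1 and PPP1R17 cluster, at 18.3 and 23.4 CPM against 0.232 and 0.787 in otic cells. That is 78.6-fold (45.8 to 142) in GelNB-CH and 29.7-fold (20.9 to 43.4) in Matrigel, over an otic base of 17 and 36 UMIs. The same cluster exceeded the neuron-like cells in MFNG by 5.84-fold (3.45 to 10.4) and 2.68-fold (1.54 to 5.10). This cluster met 11 of 12 neuron markers, its best match among the lists. Its neuroblast markers, which include NEUROD1, summed to 970 and 839 CPM, a sum not set beside other classes here.

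Genes whose log2(CPM + 1) profile was most like each member were sought over 42 points, 21 clusters in each of 2 libraries. The libraries differ in depth and cell make-up, and the points are not independent, so Pearson's r only describes these points. MFNG was closest to NEUROG1 (r = 0.959), a proneural factor, followed by NEUROD2 (0.957) and INSM1, and NEUROG1 and INSM1 are themselves on the neuroblast marker list. DLL3 was closest to BASP1-AS1 (0.914) and BASP1 (0.903). NOTCH2 was closest to ZFP36L1 (0.925), NOTCH3 to TRIP6 (0.906), NOTCH1 to ARHGAP5 (0.897) and JAG1 to FILIP1 (0.896). DLL1 was closest to GLDC (0.863), JAG2 to MFSD6 (0.842), LFNG to CNR1 (0.786), and the sparse DLL4 to PMM2 (0.714).

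Sending and receiving cells were compared by the ligand share, the UMIs of the 5 ligands as a percent of the UMIs of the 5 ligands and 3 receptors. It sums genes of unequal capture, so its level has no absolute meaning and only its differences across cells are used. In GelNB-CH the neuron-like cells had 90.7% (88.8 to 92.4), and those of Matrigel 87.2% (82.3 to 91.2). Otic cells had 53.9% (53.2 to 54.5) and 62.6% (61.8 to 63.3), glia-like cells 37.0% and 31.9%, and mesenchyme-like cells 30.02% and 29.4%. Neuron-like cells thus exceeded otic cells by 36.8 points (34.8 to 38.6) and 24.7 points (19.7 to 28.7). With DLL3 left out, the difference was 22.5 and 5.77 points, for which no interval was computed. The Matrigel value rests on 123 neuron-like cells with 30 receptor UMIs, so whether it differs from 0 is not settled. The ligand itself differed: JAG1 made up 89.2% and 91.4% of ligand UMIs in otic cells but 22.6% and 21.0% in neuron-like cells, where DLL3 made up 68.8% and 69.8%. Within the otic cells the share ran from 41.6% and 47.4% in cluster 6 to 72.4% and 73.8% in cluster 16.

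**Figure D2:**
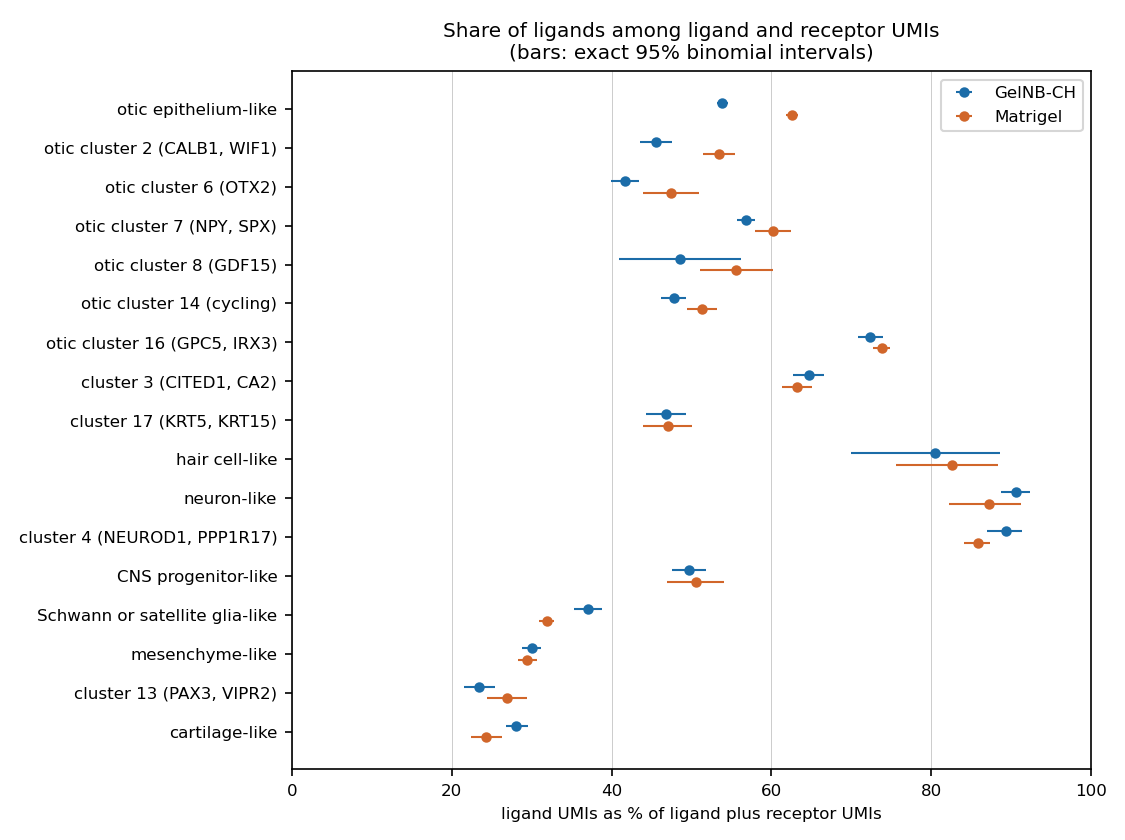
Ligand share (percent of ligand plus receptor UMIs) by lineage and otic cluster, with a point per library and its exact Clopper-Pearson interval. Neuron-like cells lie at 90.7% and 87.2% and mesenchyme-like cells at 30.02% and 29.4%.

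Single cells were read after thinning each to 5000 UMIs. Shallower cells, 1939 of GelNB-CH and 418 of Matrigel, were left out. Among otic cells, 24.0% and 29.4% had UMIs of a ligand but no receptor, 24.8% and 21.0% of a receptor but no ligand, and 20.3% and 22.6% of both. Unthinned, at median depths of 9398 and 15071 UMIs, ligand alone stood at 18.01% and 15.7%, receptor alone at 21.7% and 15.96%, and both at 44.4% and 60.3%, so that detecting both was more frequent in the deeper reading. Neuron-like cells had ligand alone in 38.8% and 37.6% and receptor alone in 2.68% and in 0 of 117 cells, where 3 counts would be 2.56% and the exact interval reaches 3.10%. Unthinned, at medians of 6347.5 and 11275 UMIs, ligand alone was found in 42.9% and 52.8%. DLL3, known to act inside the cell that makes it, counts as a ligand here. Of thinned neuron-like cells, 42.6% and 43.6% had any ligand, and 31.7% and 36.8% had DLL3. No single-cell reading without DLL3 was made. Glia-like cells showed the reverse balance, with receptor alone in 35.2% and 37.8% and ligand alone in 14.3% and 11.9%. DLL3 had a UMI in 31.7% and 36.8% of thinned neuron-like cells and in 1.21% and 0.757% of glia-like cells, its lowest lineage. Mesenchyme-like cells stood higher in DLL3 than glia-like cells, at 11.3 and 9.84 CPM, and otic cells had 7.07 and 7.96. No background level of DLL3 was estimated, and the glia-like level is not used as one. MFNG had a UMI in 8.58% and 12.2% of the NEUROD1 and PPP1R17 cluster against 0.0929% and 0.126% of glia-like cells.

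**Figure D3:**
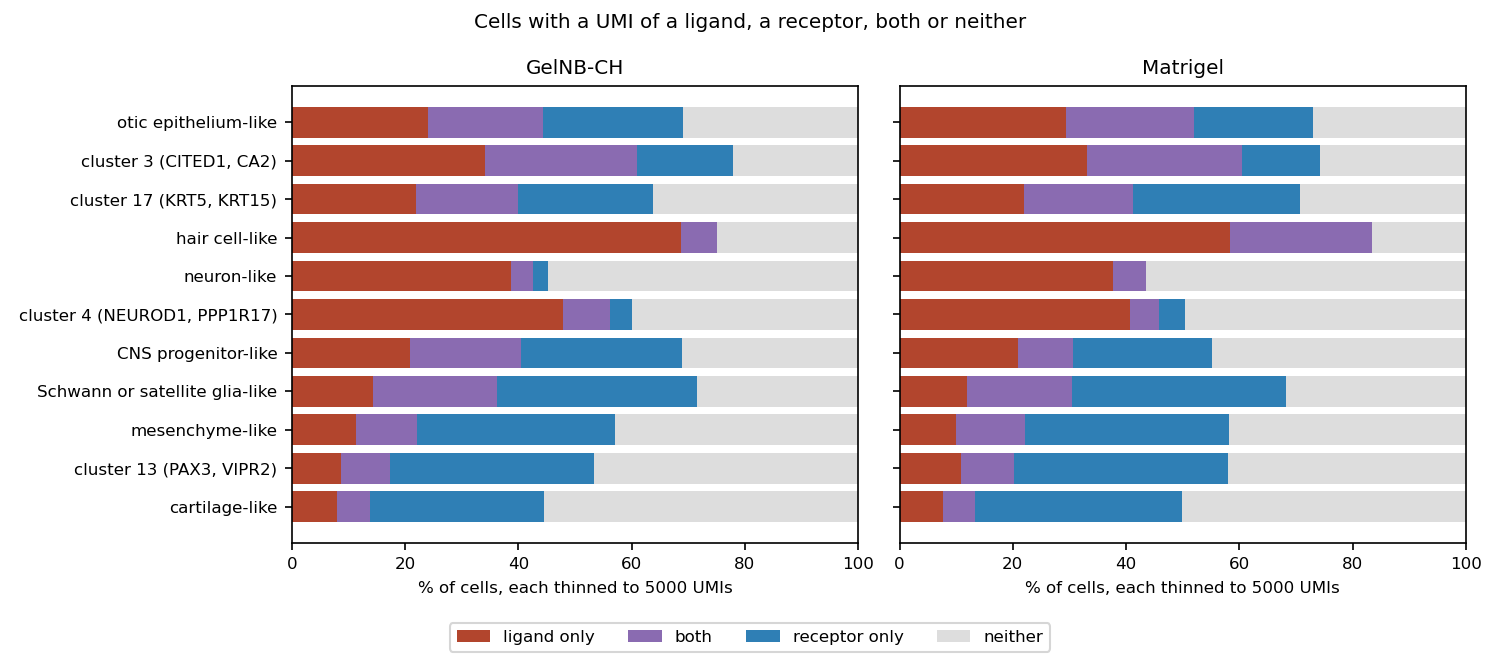
Percent of cells, thinned to 5000 UMIs, with UMIs of ligands alone, both, receptors alone or neither (stacked bars), by kind of cell, a panel per library. Receptor alone covers 24.8% and 21.0% of otic cells and 2.68% and 0 of neuron-like cells. DLL3 is counted among the ligands.

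Cells with a UMI of a Delta ligand were set beside cells of the same class without one, in which HES6, a gene of differentiating neural cells, and HES5, a NOTCH target, were read. Cells with a UMI of a gene are deeper, so part of each contrast moves with depth, and that part was not tested. Among central nervous system progenitors, 114 GelNB-CH cells with DLL1 (median 9518 UMIs) had 674 CPM of HES6 and 92.1 of DLL3, against 224 and 20.8 in the 694 without (median 8525). In Matrigel the 28 cells with DLL1 (median 18951) had 753 CPM of HES6 and 49.3 of DLL3, against 237 and 28.2 in the 177 without (median 15009). DLL1 in these cells therefore went with HES6 in both libraries. HES5 was 1773 against 1235 CPM in GelNB-CH and 898 against 508 in Matrigel. In otic cells the DLL1 split was not of this kind, with HES6 at 14.2 against 15.4 CPM in GelNB-CH and 9.75 against 14.8 in Matrigel. Neuron-like cells with DLL3 had 557 against 146 CPM of HES6 in GelNB-CH and 505 against 95.2 in Matrigel.

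Hair cell-like cells, with POU4F3, OTOF and ATOH1 among their leading genes, had more of the Delta ligands, JAG2 and MFNG per UMI than otic cells. They numbered 16 in GelNB-CH and 12 in Matrigel, so the UMIs are given. JAG2 had 12 and 12 UMIs, or 49.8 and 30.9 CPM, which is 16.9-fold (8.59 to 30.1) and 9.13-fold (4.62 to 16.4) the otic level. DLL1 had 18 and 27 UMIs, 74.7 and 69.6 CPM, at 12.2-fold (7.16 to 19.5) and 11.7-fold (7.57 to 17.4). DLL3 had 22 and 28 UMIs, 91.3 and 72.2 CPM, at 12.9-fold (8.02 to 19.8) and 9.07-fold (5.94 to 13.3). For each of these 3 ligands the intervals of both libraries overlapped and lay above 4-fold. MFNG had 16 and 36 UMIs, 66.4 and 92.8 CPM, at 286-fold (135 to 602) and 118-fold (72.2 to 193) over an otic base of 17 and 36 UMIs. DLL4 had 2 and 4 UMIs, with ratios of 43.4 (4.79 to 189) and 67.4 (14.5 to 265). LFNG had 2 and 11 UMIs, with ratios of 4.47 (0.536 to 16.5) and 8.37 (4.09 to 15.4).

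The receptors were lower than in otic cells or not separated from them. NOTCH1 had 4 and 12 UMIs, with ratios to otic cells of 0.346 (0.094 to 0.887) and 0.654 (0.338 to 1.15). NOTCH2 had 9 and 10 UMIs, with ratios of 0.682 (0.311 to 1.30) and 0.621 (0.297 to 1.14). NOTCH3 had 2 and 4 UMIs, with ratios of 0.309 (0.037 to 1.12) and 0.311 (0.085 to 0.797). Receptor ratios were thus all under 1, with intervals that reached past 1 for NOTCH2 in both libraries, NOTCH1 in Matrigel and NOTCH3 in GelNB-CH. HES6 stood at 2857 and 2214 CPM against 15.3 and 14.2 in otic cells, and the NOTCH target HES1 at 353 and 216 against 1566 and 1134. The ligand share was 80.5% (69.9 to 88.7) and 82.7% (75.6 to 88.4). Under other processing this share ran from 72.7% to 96.6% in GelNB-CH and from 65.7% to 100% in Matrigel. It left its counting interval in 3 of 9 alternatives in GelNB-CH and in 3 of 10 in Matrigel.

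A few deep cells carried most NOTCH2 and NOTCH3 UMIs of the hair cell-like cells and, in Matrigel, most JAG1 UMIs. JAG1 had 8 UMIs in GelNB-CH and 53 in Matrigel, 33.2 and 136.6 CPM, a Matrigel to GelNB-CH ratio of 4.11. Of the 53 Matrigel UMIs, 45 lay in 3 cells of over 30000 UMIs, and those 3 held 79 of the 84 HES1 UMIs. In the 14 and 9 cells of at most 30000 UMIs, JAG1 had 4 and 8 UMIs (23.3 and 47.0 CPM), a GelNB-CH to Matrigel ratio of 0.496 (0.109 to 1.85). In these shallower cells NOTCH3 had 0 UMIs in both libraries and NOTCH2 had 2 and 1. NOTCH1 did not follow: it was 17.5 CPM in shallower against 14.4 in deep GelNB-CH cells, and 29.4 against 32.1 in Matrigel. In GelNB-CH, 4 of the 8 JAG1 UMIs lay in the 2 deep cells. The ligand signal stayed: DLL1 had 18 and 21 UMIs (105 and 123 CPM) in 11 of 14 and 6 of 9 cells, DLL3 16 and 21 (93.3 and 123 CPM), JAG2 11 and 8 (64.2 and 47.0 CPM) and MFNG 15 and 26 (87.5 and 153 CPM). Without the deep cells the ligand share was 91.1% in GelNB-CH and 90.8% in Matrigel, a reading chosen after seeing the data. Whether the deep cells are doublets was not tested.

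**Figure D4:**
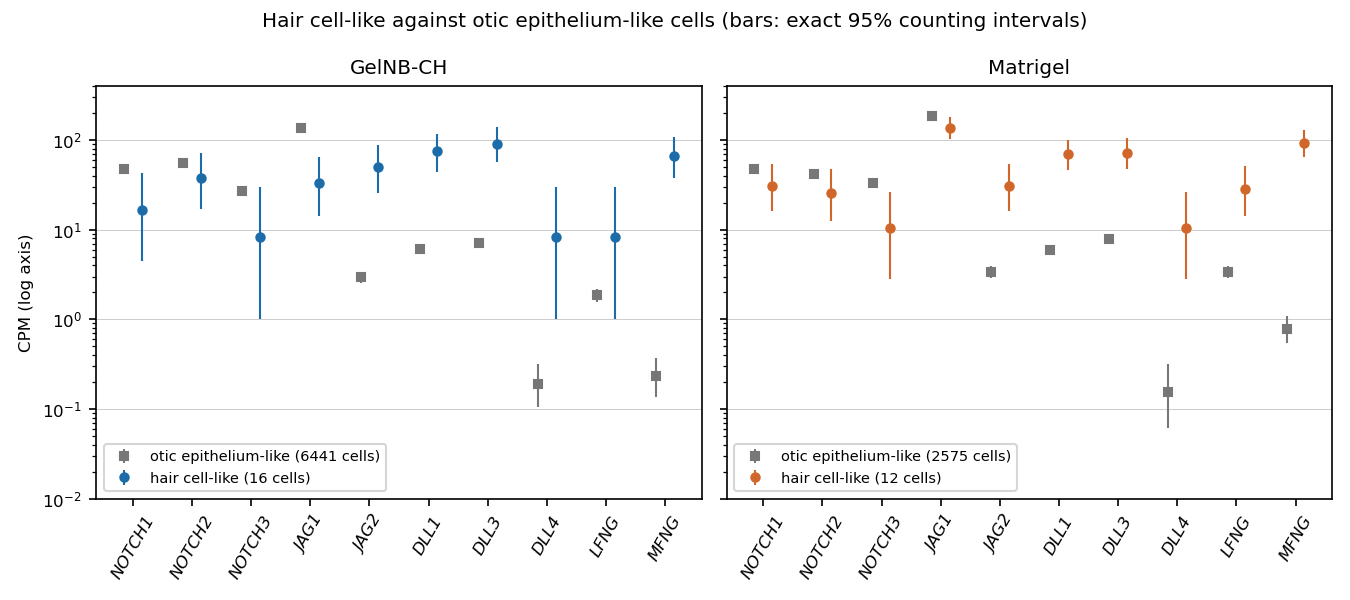
CPM (log axis) of each member in otic epithelium-like cells (grey squares) and hair cell-like cells (coloured circles), a panel per library, with exact Poisson intervals as bars. JAG2, DLL1, DLL3 and MFNG lie higher in hair cell-like cells in both panels, MFNG at 66.4 and 92.8 CPM against 0.232 and 0.787.

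Between the libraries the receptors, JAG1 and DLL3 were close in level, and the fringes were higher in Matrigel. Of the 5 members with a larger CPM of at least 10, 0 differed by 2-fold, and of all 10568 genes tested that way 2.10% did. In otic cells 0 of 4 did, against 2.00% of 10526 genes. At 1.5-fold the count was again 0, against 7.45% over all cells and 6.90% in otic cells. JAG1 was 89.3 CPM in GelNB-CH and 100.8 in Matrigel over all cells, a ratio of 0.886 (0.867 to 0.906). In cells of 8000 to 16000 UMIs alone the direction turned, from -0.17 to 0.22 on the log2 scale. In otic cells JAG1 was 135.0 and 186.4 CPM, a ratio of 0.724 (0.704 to 0.746). Weighting the otic clusters to the same make-up moved that ratio to 0.863. Otic NOTCH2 was 54.8 and 41.5, a ratio of 1.32 (1.25 to 1.40), or 1.21 when weighted. These ratios reached neither 1.5-fold nor 2-fold.

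The 2 fringes, under 10 CPM, fell outside that count. LFNG was 3.28 CPM in GelNB-CH and 5.47 in Matrigel over all cells, a ratio of 0.600 (0.540 to 0.667), and 1.86 and 3.39 in otic cells, 0.548 (0.432 to 0.695). MFNG was 0.883 and 2.40 over all cells, from 163 and 376 UMIs, a ratio of 0.369 (0.305 to 0.444), which became 0.698 when the clusters were weighted to the same make-up. The NEUROD1 and PPP1R17 cluster, where MFNG is high, had 362 cells in GelNB-CH and 645 in Matrigel. LFNG became 0.769 with the same weighting. NOTCH1, NOTCH3, DLL1 and DLL3 over all cells had ratios of 0.912, 0.833, 1.18 and 1.10, and NOTCH1 was 1.00 when weighted. In the other classes with at least 50 cells in each library the count of 2-fold members was also 0, against 1.94% of genes in glia-like, 1.19% in cartilage-like, 6.50% in central nervous system progenitor-like, 1.12% in mesenchyme-like and 3.86% in neuron-like cells. Among single clusters of that size, 2-fold members were found in both clusters of the central nervous system progenitors. In cluster 15, 2 of 8 tested members differed, against 12.1% of genes: NOTCH3 at 38.4 and 15.9 CPM, a ratio of 2.42 (1.62 to 3.71), and MFNG at 5.75 and 12.4 (16 and 25 UMIs), a ratio of 0.463 (0.231 to 0.902). In cluster 20, 1 of 7 did, against 5.90%: DLL1 at 19.8 and 9.59 CPM (96 and 16 UMIs), 2.06 (1.21 to 3.75).

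**Figure D5:**
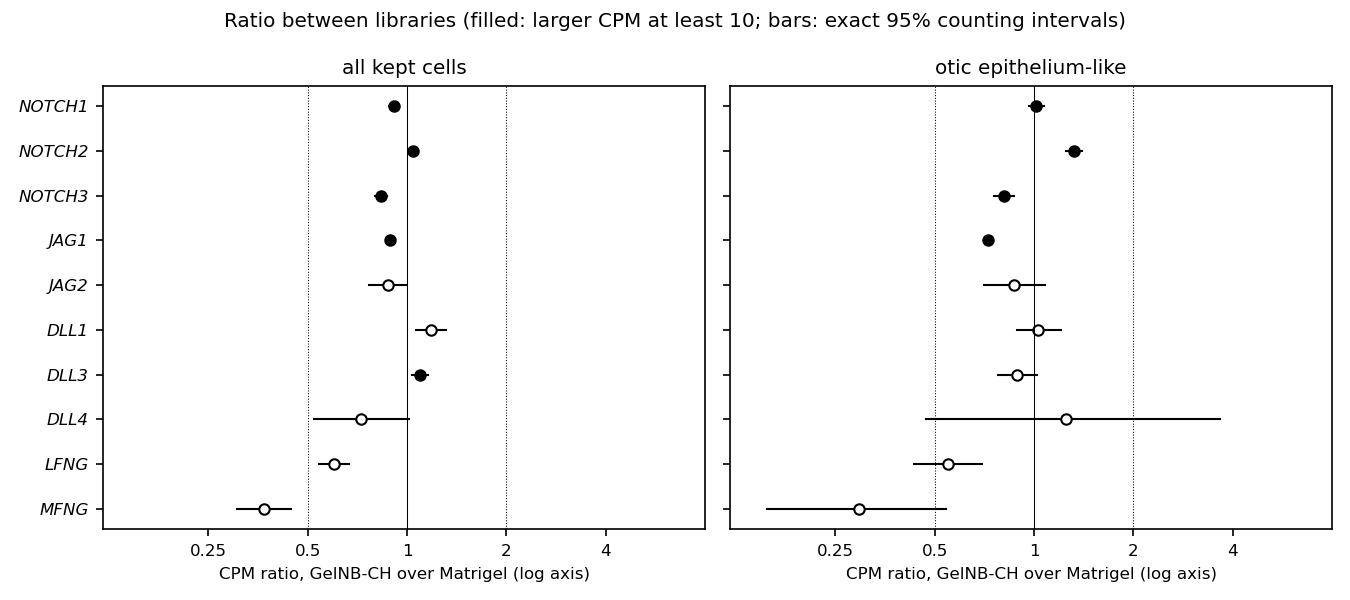
Ratio of CPM, GelNB-CH over Matrigel (log axis), for each member over all kept cells and in otic epithelium-like cells, with exact conditional binomial intervals as bars, filled where the larger CPM is at least 10 and with dotted lines at 2-fold. No filled point passes a dotted line, JAG1 lies at 0.886 and 0.724, and the open MFNG points lie at 0.369 and 0.295.

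Other genes of the pathway were taken from lists of 48 genes. Over all cells 36 had at least 10 CPM, of which 2 were 2-fold up in GelNB-CH and 2 in Matrigel, against 0.710% and 1.39% of genes. In otic cells 34 did, of which 1, DNER, was 2-fold up in GelNB-CH and 0 in Matrigel, against 1.05% and 0.950% of genes. DNER, a further ligand of the pathway in neural cells, was 21.9 CPM in GelNB-CH and 9.18 in Matrigel, 2.39-fold (2.25 to 2.54), and in otic cells 20.3 and 6.58, 3.08-fold (2.72 to 3.50). HES5 was 117 and 57.1, 2.05-fold. HEY2 was 29.9 and 69.0 and HEYL 11.3 and 25.8, higher in Matrigel, but within glia-like cells HEY2 was 210 and 238 and HEYL 75.0 and 83.3. Glia-like cells were 6.97% of GelNB-CH and 25.4% of Matrigel kept cells. The target HES1 was 1566 and 1134 CPM in otic cells. RBPJ, the pathway's DNA-binding factor, was 157 in both libraries over all cells, and NOTCH4 was 3.01 and 3.53.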

How the data were processed

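RNA of single sorted cells was read in 1 GelNB-CH and 1 Matrigel library (10x Genomics 3′ kit, version 3.1). The deposited values are UMI counts, whole numbers per gene and called cell barcode, per the file headers. The labels' protocols name Cell Ranger 4.0.0 but the matrix header names 7.1.0. STAR and GRCh38 (hg38) appear in the submitters' processing notes. For the annotation version and the counting of intronic reads, nothing is stated in the sources used here. The reporter transcript is not in the gene list. GENCODE v29 matched 34616 genes.

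Barcodes with under 1000 genes or over 15% mitochondrial UMIs were left out (424 and 413), and Scrublet doublets (14.2% and 6.55% of barcodes) were removed. Leiden clustering (scanpy 1.11.5, igraph 0.11.9, scikit-learn 1.9.0, Python 3.11.15) used 2000 variable genes without the NOTCH lists, 30 components, 15 neighbours and resolution 1.0. A cluster took a name from 19 marker lists with at least 3 markers, each in 10% of its cells and 2-fold above the median cluster, and a share of at least 0.3 of the list. It stayed unnamed where its 10 leading genes went against the name.

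CPM were computed here from summed counts. Intervals are exact Poisson, Clopper-Pearson or conditional binomial, and reflect counting error alone. No test was made, as each group is 1 library. Genes are called 2-fold apart where the larger CPM is at least 10. All 10 members are named, with the profiles most like each. Members were matched by symbol, and the choice of this gene group and of the lists was made with earlier results of these data known. Scaling was checked with edgeR 4.0.16 in R 4.3.3. Alternatives changed filters, doublets, clustering, depth, scaling and thresholds. The ratio between libraries, its interval and the 2-fold rule were tested on simulated Poisson counts summed over all cells. Clustering, naming, ligand shares and thinning were not simulated.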

Additional observations from a re-analysis of the deposited data

How the results depend on the processing

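The count of members 2-fold apart was 0 under all 13 alternatives over all cells and all 12 in otic cells. Neuron-like minus otic ligand share was 36.8 points in GelNB-CH and 24.7 in Matrigel, and kept its sign in all 11 alternatives of each, from 22.5 to 37.6 and from 5.77 to 33.5. It moved to 22.5 and 5.77 without DLL3, to 34.1 in GelNB-CH with clusters weighted to the same make-up, and in Matrigel to 33.5 in cells of 8000 to 16000 UMIs and 30.5 after thinning. These alternatives carry no interval of their own. The sign of the 5.77 points rests on 30 receptor UMIs in neuron-like cells and is not settled. The cause of these moves was not tested. Leaving out DLL3, 68.8% and 69.8% of the ligand UMIs of neuron-like cells, lowers their share by construction. Joining the NEUROD1 and PPP1R17 cluster to the neuron-like cells was added after seeing the data, as was leaving out hair cell-like cells of over 30000 UMIs. Keeping doublets gave no neuron-like class, so no difference could be computed there. The otic ligand share itself left its counting interval in 8 of 11 alternatives in GelNB-CH and in all 11 in Matrigel. It ran from 50.0% to 56.5% and from 56.3% to 65.0%. JAG1 over all cells turned from -0.17 to 0.22 (log2, GelNB-CH over Matrigel) in cells of 8000 to 16000 UMIs, NOTCH1 over all cells reached 0.00 when weighted, and otic NOTCH1 changed sign in 6 of 10 alternatives, otic JAG2 in 2 and otic DLL4 in 2. TMM scaling shifted log2 ratios by 0.09 over all cells and in otic cells. No paired analysis was possible because each group has 1 library. Depth limits DLL4, MFNG in otic cells and every hair cell-like value. The hair cell-like class itself, of 16 and 12 cells, also depended on the processing. At a lower clustering resolution no cluster took that name in either library. Clustering the libraries separately gave no such class in GelNB-CH and 91 cells in Matrigel. With doublets kept it held 47 cells in GelNB-CH and 14 in Matrigel.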
